A study of Mus musculus with 24 samples.

Results

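Odorant receptors of mouse chromosome 7 with names from Olfr470 to Olfr535 and from Olfr692 to Olfr716 were followed through 24 RNA-seq libraries of the olfactory epithelium. Taking every gene in those 2 ranges and leaving out the pseudogenes marked -ps gave 75 genes of the 57010 in each count table, or 75 of the 1108 genes with an olfactory receptor name. By family number, 71 are class II receptors, the class that makes up most of the mouse repertoire. The other members are Olfr503, Olfr504 and Olfr692, whose MOR family numbers (the older mouse receptor nomenclature, here 34, 40 and 36) are below 100 and mark class I, and Olfr715b, which has no such number. The set is therefore not purely class II. Olfr471 carries no -ps but is annotated as a pseudogene, and the other 74 members are annotated as protein coding.

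An odorant receptor is a G protein-coupled receptor in the cilia of an olfactory sensory neuron, and each mature neuron transcribes 1 allele of 1 receptor gene. Odorant binding acts through the G protein subunit encoded by Gnal on the adenylyl cyclase encoded by Adcy3, and cyclic AMP opens channels built from Cnga2, Cnga4 and Cngb1. In epithelium RNA a receptor's level therefore depends both on how many neurons chose it and on how much of its transcript each holds. In these bulk samples fewer cells of a type and less RNA per cell cannot be told apart.

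The mice were wild-type male C57BL/6J animals aged 8 weeks. After 4 h of habituation in an odor-free chamber they spent 90 min with filter paper that was empty or held 10 µL of odorant. One batch, AD, has a no-odor control, the aromatic ketone acetophenone, the long-chain aldehyde decanal and a 1:1 mixture of both. The other, OC, has its own no-odor control, octanal, which is an aldehyde with a shorter chain than decanal, the leaf alcohol cis-3-hexenol and their 1:1 mixture, with 3 biological replicates in each of the 8 groups. Odorants were used at 100%, and RNA came from homogenates cleared by centrifugation.

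Libraries held 19003759 to 24802496 counts, and all receptors together took 0.317% to 0.574% of them. Within the AD batch, transcripts encoded by mitochondrial DNA took 0.260% of counts without odor and 0.774% with decanal, and erythroid and marrow markers stood higher with decanal and the AD mixture. In the OC batch the erythroid markers stood lower with each odorant, and the marrow markers with octanal and the mixture. Their values are given beside the results they move with.

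The receptors fall into 5 stretches of neighbours, separated by gaps of over 0.5 Mb in the RefSeq order of the earlier build GRCm38.p6. Coordinates are not given because the counts rest on GRCm39. The first stretch holds Olfr520 and Olfr521, the second Olfr692, the third the 21 genes from Olfr693 to Olfr716, the fourth the 41 genes from Olfr470 to Olfr519, and the fifth the 10 genes from Olfr522 to Olfr535. Of the 75 genes, 74 have a MOR number and fall into 16 families, of which MOR204 is the largest with 30 members, all in the fourth stretch. MOR283 has 12 members, MOR268 has 6, MOR260 has 5 and MOR251 has 4.

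Neighbouring members can be close copies, which bears on how well reads can be told apart. Coding sequences of members of 1 family had a median identity of 78.6% over 510 pairs, against 56.1% over 2191 pairs from different families. The nearest pair was Olfr715 and Olfr715b, with 99.1% identity and 9 differing bases. Bases 331 to 420 of the coding sequence are shown for both, as the strictest case of reads that 2 genes can share. Capitals mark the bases at which the pair differs, here and in the pairs that follow, and all sequences are from GENCODE M21 transcripts.
Olfr715: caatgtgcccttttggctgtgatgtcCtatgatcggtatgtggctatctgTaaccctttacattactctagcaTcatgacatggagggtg
Olfr715b: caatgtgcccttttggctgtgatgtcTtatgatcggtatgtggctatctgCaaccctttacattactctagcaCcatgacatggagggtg

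Olfr525 and Olfr532 lie in the fifth stretch, belong to family MOR251 and have 91.5% identity. They are shown because Olfr525 was called with cis-3-hexenol and the OC mixture after scaling to the other receptors and Olfr532 was not called. In the 90 bases printed they differ at 4 positions.
Olfr525: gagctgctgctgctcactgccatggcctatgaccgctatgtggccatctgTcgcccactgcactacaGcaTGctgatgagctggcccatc
Olfr532: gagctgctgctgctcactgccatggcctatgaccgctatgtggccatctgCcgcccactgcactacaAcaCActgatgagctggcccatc

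Olfr527 and Olfr531, of the same family and stretch, have 93.1% identity. They are shown because Olfr527 was called in 5 of the 6 comparisons with a control and Olfr531 in 1. The Olfr531 window covers bases 328 to 417.
Olfr527: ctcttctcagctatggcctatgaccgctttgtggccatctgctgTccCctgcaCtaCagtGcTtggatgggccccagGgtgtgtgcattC
Olfr531: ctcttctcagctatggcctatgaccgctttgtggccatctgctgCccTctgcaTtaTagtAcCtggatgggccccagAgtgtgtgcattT

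Olfr693 and Olfr705, of family MOR283 in the third stretch, have 83.2% identity. They are shown because both were called higher with each OC odorant on the usual scale.
Olfr693: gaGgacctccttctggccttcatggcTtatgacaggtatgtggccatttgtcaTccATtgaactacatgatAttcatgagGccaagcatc
Olfr705: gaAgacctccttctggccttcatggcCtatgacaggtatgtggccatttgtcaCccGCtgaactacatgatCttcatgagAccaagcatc

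Olfr716, of family MOR260, is nearest among the members to Olfr707, with 75.4% identity. It is shown as a member called in 4 comparisons whose nearest relative within the set is much less alike. Receptors outside the set were not aligned, so closer relatives there are not excluded for any member.
Olfr716: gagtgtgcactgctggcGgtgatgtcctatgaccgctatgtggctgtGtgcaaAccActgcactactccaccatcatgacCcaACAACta
Olfr707: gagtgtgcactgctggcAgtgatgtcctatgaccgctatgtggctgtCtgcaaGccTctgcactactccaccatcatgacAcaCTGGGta

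In a table of estimated counts, a value that is not whole can arise where reads were divided between genes. Of the 75 members, 46 had no such value. Olfr707, Olfr715, Olfr715b and Olfr482 had them in all 24 libraries, and Olfr509 and Olfr523 had them in 58.3% and 54.2% of libraries. These 6 are the members above 50%. Olfr533 had such values in 50% of libraries, and Olfr531, Olfr706 and Olfr711 in 37.5%. Changes of any member with such values are uncertain to the extent that this division differed between libraries.

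Levels were compared between genes as CPM (counts per 1000000 deposited counts) per kilobase of the longest annotated transcript. The median member stood at 0.558 CPM per kb, and the median of the other 1033 receptors at 0.624. A mean of at least 10 counts per library was reached by 52 of 75 members (69.3%) and by 844 of the other 1033 (81.7%). In each library, 60 to 70 members had at least 1 count. Counts in every library were seen for 53 members, and Olfr504, of class I, had none in any library.

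Level per length was highest in the fifth stretch. Its 10 genes held 45.8% of all member counts, with a median of 3.10 CPM per kb and a range from 0.969 for Olfr525 to 6.95 for Olfr533. The third stretch held 32.7% of member counts with 21 genes, and the fourth 20.7% with 41 genes and a median of 0.223 CPM per kb. The highest levels per length were those of Olfr533 (6.95), Olfr705 (5.29), Olfr527 (5.19), Olfr531 (5.12), Olfr523 (4.66) and Olfr530 (3.61 CPM per kb). Among these 6 only Olfr705 lies outside the fifth stretch.

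Family leaders differed as widely. Olfr491 led MOR204 at 2.80 CPM per kb while the family median was 0.259, and Olfr518 led MOR268 at 0.901 with a family median of 0.123. Olfr716 led MOR260 at 1.32 CPM per kb. The 10 members whose transcript model holds coding sequence alone had a median of 0.00884 CPM per kb, and the 64 whose model holds untranslated sequence one of 0.744.

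**Figure D1:**
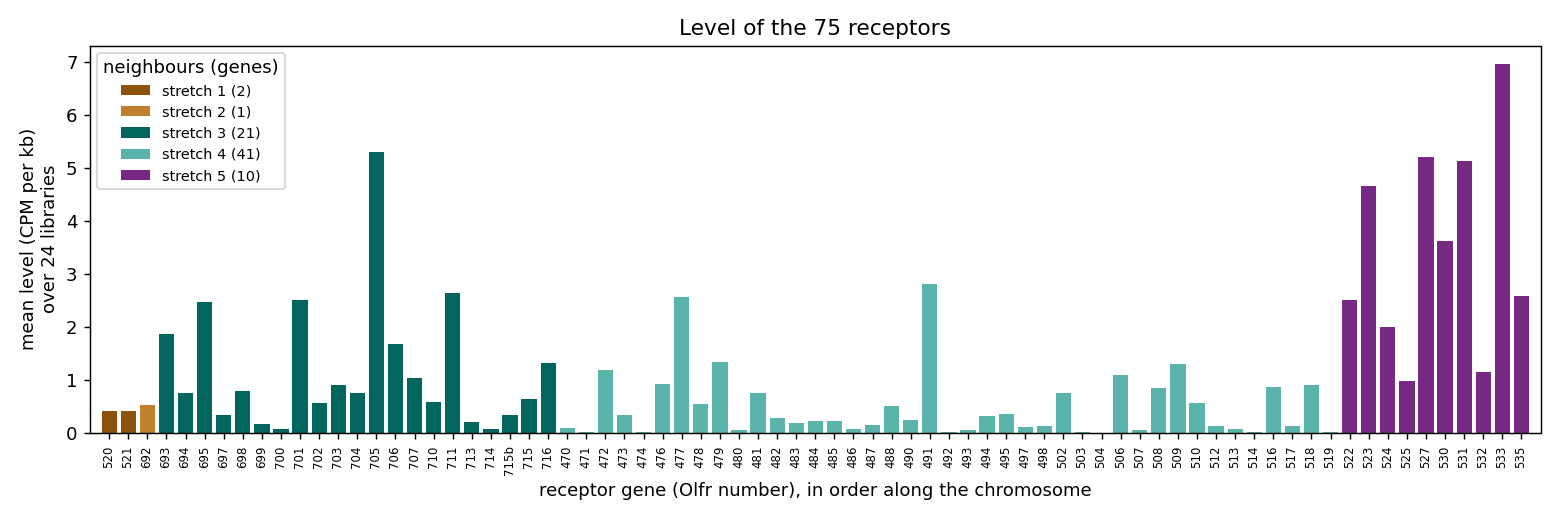
Mean level over 24 libraries (CPM per kb of transcript, linear axis from 0) of the 75 receptors in their order along the chromosome, with bars coloured by stretch of neighbours. The 10 genes of the fifth stretch lie between 0.969 and 6.95, while the 41 of the fourth have a median of 0.223.

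Genes just outside the named ranges had levels of their own. Olfr469, of family MOR204 like Olfr470, had a median of 2.05 CPM over the libraries, against 0.207 CPM for Olfr470. Olfr536, of family MOR252, reached 124 CPM, against 13.2 CPM for Olfr535. Olfr691, of class I, stood at 3.08 CPM and Olfr692 at 0.527 CPM.

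The members' summed level differed between groups in opposite directions in the 2 batches. In the AD batch it was 326 ± 17.3 CPM without odor (SD, n = 3), 317 ± 2.50 with acetophenone, 271 ± 24.3 with decanal and 253 ± 28.7 with the mixture. In the OC batch it was 223 ± 25.7 CPM without odor, 287 ± 10.1 with octanal, 281 ± 7.33 with cis-3-hexenol and 293 ± 9.12 with the mixture. The 3 OC control libraries held 226, 248 and 196 CPM, all below the 275 to 303 CPM of the 9 libraries with an OC odorant. The decanal libraries (249, 297 and 268 CPM) and the AD mixture libraries (222, 260 and 278 CPM) were all below the AD controls (319, 314 and 346 CPM).

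All receptors together moved in the same directions. They took 0.515% of counts in the AD controls, 0.500% with acetophenone, 0.468% with decanal and 0.460% with the AD mixture. They took 0.372% in the OC controls, 0.501% with octanal, 0.493% with cis-3-hexenol and 0.535% with the mixture. The members were therefore also measured as a share of all receptor counts. That share was lower with an odorant in both batches, except with acetophenone. It was 6.33% ± 0.226 in the AD controls, 6.34% ± 0.173 with acetophenone, 5.79% ± 0.0963 with decanal and 5.50% ± 0.0951 with the AD mixture. In the OC batch it was 6.02% ± 0.149 without odor, 5.73% ± 0.0103 with octanal, 5.70% ± 0.144 with cis-3-hexenol and 5.48% ± 0.177 with the mixture. Apart from acetophenone, no odorant library overlapped its controls. For the OC odorants this lack of overlap depends on Olfr533, Olfr531 and Olfr523, the 3 members with the most counts. Their removal left a mean share of 4.67% in the OC controls, 4.53% with octanal, 4.58% with cis-3-hexenol and 4.44% with the mixture. Without them the share ran from 4.41% to 4.87% in the OC controls, from 4.49% to 4.61% with octanal, from 4.53% to 4.61% with cis-3-hexenol and from 4.29% to 4.56% with the mixture, all overlapping. In the AD batch it ran from 4.78% to 5.30% in the controls, from 4.53% to 4.76% with decanal and from 4.20% to 4.49% with the mixture, without overlap. No test is given for this sum over members.

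**Figure D2:**
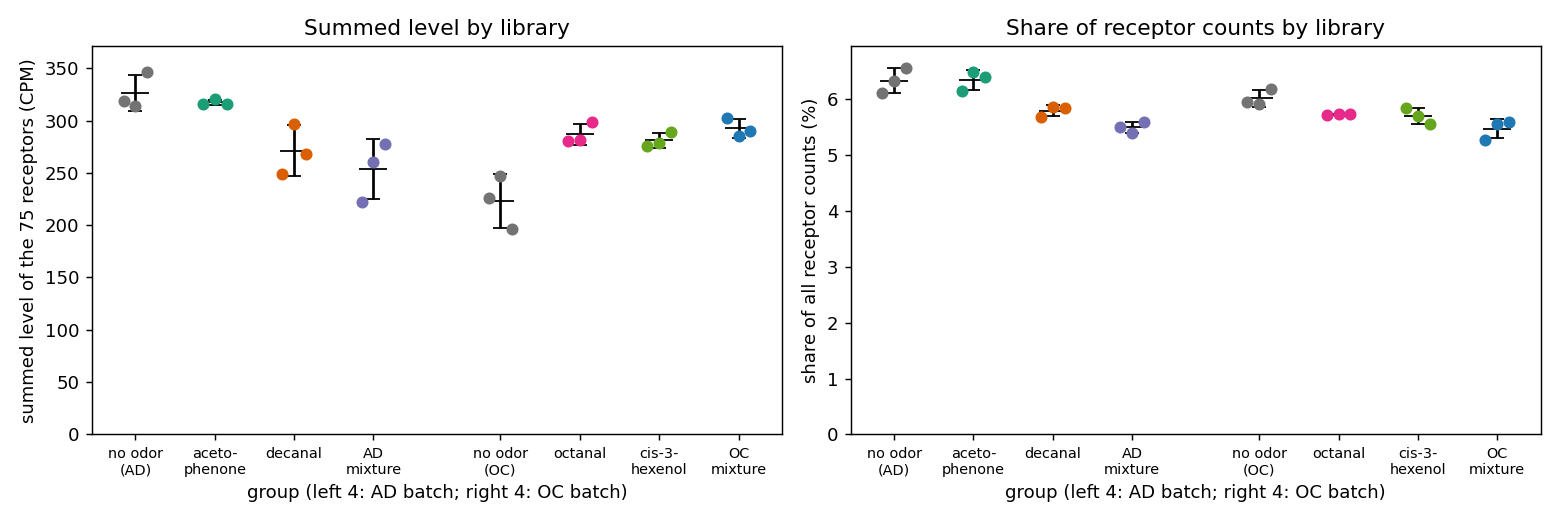
Summed level of the 75 receptors in CPM (left) and their share of all receptor counts in percent (right) by group; points are libraries, and bars the mean and SD of 3, on axes from 0. The summed level is below its controls with decanal and the AD mixture and above them with each OC odorant, while the share is below its controls in all of these groups.

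By stretch, the fifth held 2.99% ± 0.102 of receptor counts in the AD controls, 2.93% ± 0.186 with acetophenone, 2.60% ± 0.0169 with decanal and 2.57% ± 0.121 with the AD mixture. In the OC batch it held 2.88% ± 0.169 without odor, 2.65% ± 0.0984 with octanal, 2.54% ± 0.125 with cis-3-hexenol and 2.35% ± 0.164 with the mixture. The libraries of octanal overlapped their controls in the fifth stretch, and those of decanal, cis-3-hexenol and both mixtures did not. With the AD mixture the third stretch and the fourth were lower without overlap too. The third held 1.96% to 2.18% in the AD controls and 1.61% to 1.94% with the mixture, and the fourth 1.19% to 1.32% and 0.943% to 1.18%. With decanal, octanal, cis-3-hexenol and the OC mixture both of these stretches overlapped their controls.

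Single members were tested with edgeR's quasi-likelihood F-test over all genes of a batch, with Benjamini-Hochberg adjustment, and calls were made at an adjusted p under 0.05. In each batch 55 members passed the filter on low counts, 53 of them in both batches and 18 in neither. The highest mean count among members that failed it in a batch was 7.13. Rates of calls over all genes tested are given beside each count of this fit. Direction depends on what counts are scaled to, so each comparison was also fitted with libraries scaled to the summed counts of the receptors outside the set.

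With acetophenone, none of the 55 members was called by edgeR, against 0.00512% of all genes, with 5 at an unadjusted p under 0.05. DESeq2's Wald test called 0 and edgeR without a low-count filter 3, with no rate over all genes given beside them. The members' median log2 fold change was 0.05, with 30 of 55 above 0, and that of the 874 other receptors tested was -0.12.

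The smallest p-values belonged to Olfr478, Olfr488 and Olfr523. Olfr478 counted 1.45, 2.17 and 2.26 CPM in the controls and 0.815, 0.286 and 1.03 CPM with acetophenone, a log2 fold change of -1.42 (SE 0.42, edgeR adjusted p = 0.517). Olfr488 stood at -1.01 (SE 0.32, edgeR adjusted p = 0.525). Olfr523 counted 24.7, 22.1 and 23.7 CPM without odor and 17.5, 19.2 and 17.1 CPM with acetophenone, a log2 fold change of -0.35 (SE 0.11, edgeR adjusted p = 0.525). In all 3 genes the acetophenone libraries lay below the controls without overlap, but they were picked by their p-values. Lower without overlap were 6 of 55 members (10.9%), 10.3% of all genes and 16.9% of the other receptors.

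Decanal was compared with the same controls. Olfr524, Olfr523 and Olfr527, all of the fifth stretch, fell, and no member rose. These 3 of 55 compare with 12.5% of all genes called lower and 3.43% of the other receptors. The members' median log2 fold change was -0.18, with 13 of 55 above 0, and that of the other receptors was 0.00. Scaled to the other receptors, the median was -0.07 and 0 members were called.

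Olfr524, of family MOR103, counted 12.3, 14.8 and 13.9 CPM in the controls and 9.59, 8.55 and 10.3 CPM with decanal. The groups did not overlap, and the log2 fold change was -0.51 (SE 0.12, edgeR adjusted p = 0.00805), a call that held in each fit without 1 library. Olfr523, of family MOR104, counted 15.4, 21.7 and 16.5 CPM with decanal, against 22.1 to 24.7 CPM in the controls. It fell by 0.38 on the log2 scale (SE 0.11, edgeR adjusted p = 0.0230), and this call was lost in 4 of 6 fits without 1 library: without AD control 1 or 3, or decanal 1 or 3. Olfr527 counted 20.0, 21.9 and 26.5 CPM without odor and 16.5, 17.1 and 17.4 CPM with decanal, a fall of 0.40 (SE 0.13, edgeR adjusted p = 0.0310). Its call was kept in 1 of 6 such fits, that without AD control 1. The count of members called was 1 without AD control 3, decanal 1 or decanal 3, and 5 without decanal 2.

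The mixture of acetophenone and decanal had 6 members that fell and none that rose, against 11.6% of all genes called lower and 4.12% of the other receptors. The median was -0.26, with 6 of 55 above 0. The median was -0.15 when scaled to the other receptors, and Olfr527 and Olfr705 remained called, against 1.24% of all genes and 1.14% of the other receptors called lower on that scale.

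Olfr527 counted 12.1, 16.8 and 15.8 CPM with the mixture, all below the control libraries, and fell by 0.60 (SE 0.13, edgeR adjusted p = 0.00352). On the receptor scale it fell by 0.47 (SE 0.13, edgeR adjusted p = 0.0215). Olfr705 counted 17.9, 16.4 and 19.4 CPM without odor and 9.17, 13.4 and 14.0 CPM with the mixture, below every control, a fall of 0.53 (SE 0.14, edgeR adjusted p = 0.0126), or of 0.41 when scaled to the other receptors. The call of Olfr527 held in each fit without 1 library, and that of Olfr705 was lost without AD control 3.

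Olfr716 and Olfr715, both of family MOR260, fell by 0.66 and 0.69 (edgeR adjusted p = 0.0203 and 0.0316). Olfr531 fell by 0.26 and Olfr523 by 0.34, with edgeR adjusted p = 0.0372 and 0.0401. None of these 4 was called after scaling to the other receptors, and all 4 lost their call without AD control 2, AD control 3 or AD mixture 1. Mixture and decanal share their control libraries, so their falls are not independent of each other. The count of members called was 1 without AD control 3, 2 without AD mixture 1 and 8 without AD mixture 3.

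Erythroid markers rose, 5 of 5, with decanal and with the AD mixture. Their summed level ran from 493 to 654 CPM in the controls, from 2147 to 2566 CPM with decanal and from 1806 to 2549 CPM with the mixture, and none was at 0. Of 8 marrow markers 7 rose in both, with a summed level of 166 to 614 CPM in the controls, 285 to 430 CPM with decanal and 312 to 453 CPM with the mixture. Of 5 bone markers 3 rose with decanal and 5 with the mixture. Of 6 sustentacular (supporting) cell markers 2 rose and 3 fell with each, with a summed level of 13165 to 13353 CPM in the controls, 12222 to 12771 CPM with decanal and 12062 to 12403 CPM with the mixture, and none at 0. Mitochondrial transcripts took 0.233% to 0.276% of counts in the controls, 0.753% to 0.795% with decanal and 0.751% to 0.881% with the mixture. The part of these in the receptor changes was not tested.

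Octanal was compared with no odor in the OC batch. Olfr705, Olfr527, Olfr491, Olfr477, Olfr522, Olfr693, Olfr533, Olfr472, Olfr716 and Olfr498 rose and no member fell. These 10 of 55 compare with 14.4% of all genes called higher and 16.9% of the other receptors. The members' median log2 fold change was 0.32, and it was -0.07 when libraries were scaled to the other receptors, whose own median was 0.35 on the usual scale. The median of all genes moved to -0.42 with that rescaling, which asks only whether a member moved with its fellow receptors.

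Olfr705 counted 13.9, 12.6 and 11.5 CPM in the OC controls and 18.9, 21.0 and 17.1 CPM with octanal. It rose by 0.54 (SE 0.09, edgeR adjusted p = 0.000566) and stood at 0.14 when scaled to the other receptors. Olfr527 counted 13.8, 13.0 and 9.83 CPM without odor and 19.3, 17.7 and 17.4 CPM with octanal, a rise of 0.53 (SE 0.11, edgeR adjusted p = 0.00274). In both genes every octanal library lay above every control.

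The other called members of the fifth stretch were Olfr522, which rose by 0.60 (SE 0.16, edgeR adjusted p = 0.0104), and Olfr533, which rose by 0.36 (SE 0.10, edgeR adjusted p = 0.0142) and turned to -0.04 when scaled to the other receptors. Of the 10 calls, 4 were in family MOR204 of the fourth stretch. Olfr491 counted 3.78, 4.63 and 3.59 CPM without odor and 9.06, 5.79 and 6.57 CPM with octanal, a rise of 0.79 (SE 0.19, edgeR adjusted p = 0.00594). Olfr477 rose by 0.62 (SE 0.15, edgeR adjusted p = 0.00622) and Olfr472 by 0.47 (SE 0.16, edgeR adjusted p = 0.0338).

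Olfr498 is the rarest of the called genes. It counted 0.212, 0.0482 and 0 CPM without odor and 0.595, 0.173 and 0.628 CPM with octanal, so the groups overlap and its log2 fold change of 2.30 (SE 0.77, edgeR adjusted p = 0.0347) rests on a few reads. Olfr693 rose by 0.62 and Olfr716 by 0.51, with edgeR adjusted p = 0.0130 and 0.0341. The calls of Olfr705, Olfr527, Olfr491, Olfr477 and Olfr522 held in each fit without 1 library and after correction for transcript length and GC content. Those of Olfr472, Olfr498, Olfr533, Olfr693 and Olfr716 were lost under that correction. Without 1 library, Olfr693 lost its call without octanal 2, Olfr533 without OC control 2 or octanal 2, and Olfr716 without OC control 1, OC control 3 or octanal 3. Olfr472 and Olfr498 each kept theirs in 2 of 6 such fits, both being lost without OC control 2, octanal 1 or octanal 3.

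Cis-3-hexenol, compared with the same OC controls, had 5 members that rose and none that fell, against 5.56% of all genes called higher and 9.43% of the other receptors. The median was 0.37, or 0.00 when scaled to the other receptors. Olfr716 counted 3.52, 4.20 and 2.99 CPM without odor and 6.21, 6.25 and 5.37 CPM with cis-3-hexenol, a rise of 0.70 (SE 0.17, edgeR adjusted p = 0.0183). Olfr693 rose by 0.62 (SE 0.17, edgeR adjusted p = 0.0292).

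Olfr530, of family MOR252, counted 6.11, 6.32 and 5.81 CPM without odor and 8.47, 8.10 and 9.33 CPM with cis-3-hexenol, a rise of 0.46 (SE 0.13, edgeR adjusted p = 0.0286). Olfr705 and Olfr527 rose by 0.31 and 0.37 (edgeR adjusted p = 0.0346 and 0.0445), and both turned when scaled to the other receptors, to -0.07 and -0.0066. All 5 calls were lost without OC control 1. The count of members called ran from 1, without OC control 3 or cis-3-hexenol 2 or 3, to 9, without OC control 2. Without OC control 1 or cis-3-hexenol 1 it was 2.

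The mixture of octanal and cis-3-hexenol had the most calls, with 13 members that rose and none that fell, against 11.5% of all genes called higher and 27.6% of the other receptors. The median was 0.44, and -0.07 when scaled to the other receptors. By stretch, 7 of the 19 tested members of the third rose, 3 of 23 in the fourth and 3 of 10 in the fifth. All of these but Olfr706 showed no overlap between the mixture and the controls. Higher without overlap were 18 of 55 members (32.7%), 16.8% of all genes and 33.9% of the other receptors.

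Family MOR283 held Olfr705, Olfr693, Olfr695 and Olfr706. Olfr693 counted 4.28, 5.55 and 3.76 CPM without odor and 9.09, 6.97 and 8.52 CPM with the mixture, a rise of 0.84 (SE 0.17, edgeR adjusted p = 0.00262). Olfr705 rose by 0.45 (SE 0.09, edgeR adjusted p = 0.00243) but stood at -0.08 when scaled to the other receptors. Olfr695 rose by 0.59 (SE 0.15, edgeR adjusted p = 0.00865).

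Olfr491 counted 6.85, 9.27 and 7.09 CPM with the mixture, against 3.59 to 4.63 CPM without odor, and rose by 0.93 (SE 0.19, edgeR adjusted p = 0.00270). Olfr527 rose by 0.49 (SE 0.11, edgeR adjusted p = 0.00564) and Olfr535 by 0.44 (SE 0.13, edgeR adjusted p = 0.0215), and scaled to the other receptors they stood at -0.02 and -0.07. Olfr711, of family MOR103, rose by 0.57 and Olfr716 and Olfr715, of MOR260, by 0.60 and 0.78. Olfr476 rose by 0.85 (SE 0.26, edgeR adjusted p = 0.0272) and its close relative Olfr477, with 95.2% identity, by 0.44. Olfr477 turned to -0.07 when scaled to the other receptors. Olfr706 rose by 0.52 and Olfr522 by 0.46, and on that scale they stood at -0.0079 and -0.05. The calls of Olfr705, Olfr693, Olfr491, Olfr527 and Olfr695 held in each fit without 1 library. Correction for transcript length and GC content left 4 of the 13 called and ended the calls of Olfr705 (0.16, edgeR adjusted p = 0.279) and Olfr695 (0.35, edgeR adjusted p = 0.0826), while those of Olfr693, Olfr491 and Olfr527 were kept. Without OC mixture 3 the calls of Olfr476, Olfr477, Olfr522, Olfr535, Olfr706, Olfr711 and Olfr715 were lost. Without OC control 1 those of Olfr476, Olfr477, Olfr522, Olfr535 and Olfr716 were lost. Olfr477 and Olfr522 each kept their call in 1 of 6 such fits, and Olfr706 in 2. The count of members called was 8 without OC mixture 1 and 6 without OC mixture 3.

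**Figure D3:**
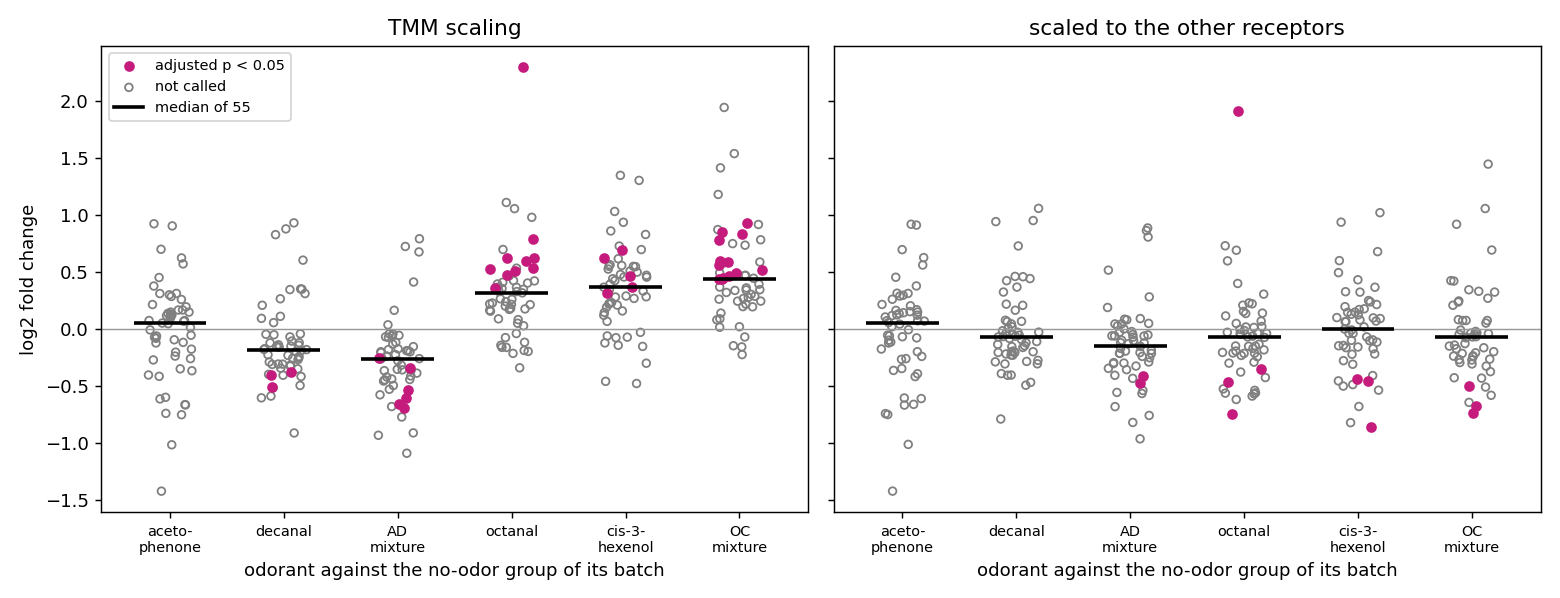
Log2 fold change of the 55 tested receptors for each odorant against the no-odor group of its batch, with TMM scaling (left) and with libraries scaled to the other receptors (right); filled points were called at adjusted p under 0.05 and bars are medians. With TMM scaling the medians are 0.32 to 0.44 for the OC odorants, and they are -0.07 to 0.00 when scaled to the other receptors.

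Members that did not move with the other receptors were found on the rescaled fit. With each of the 3 OC odorants 3 members were lower than the other receptors' change, against 49.9% of all genes with octanal, 48.3% with cis-3-hexenol and 64.3% with the mixture called lower on a scale that moves the median of all genes to -0.42, -0.39 and -0.52. Of the receptors outside the set, 4.37%, 3.10% and 3.79% were called lower on that scale, and 3 of 55 members is 5.45%. Such calls are therefore not particular to the set. Olfr523 and Olfr524, which neighbour each other in the fifth stretch, were among the 3 each time. The next gene, Olfr525, was the third with cis-3-hexenol and the mixture, and Olfr715b with octanal. These comparisons share their controls, so the recurrence is not independent support. With so many genes called on this scale, the adjustment raises p little near the threshold. For Olfr524 with cis-3-hexenol the edgeR p was 0.0117 before adjustment and 0.0282 after it. Calls with the OC odorants are therefore less strict here than on the usual scale.

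On the usual scale none of these 3 neighbours was called with any OC odorant. Olfr523 counted 22.9, 19.2 and 16.8 CPM in the OC controls, and 21.3, 20.1 and 21.4 CPM with octanal, a log2 fold change of 0.05 (edgeR adjusted p = 0.673). It counted 17.8, 17.8 and 18.1 CPM with the mixture. Per 1000 receptor counts it held 6.04, 4.59 and 5.31 in the controls and 3.10, 3.46 and 3.49 with the mixture, and all 9 odorant libraries lay between 3.10 and 4.34, below the controls.

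Scaled to the other receptors, Olfr523 was lower by -0.35 with octanal (SE 0.11, edgeR adjusted p = 0.0162), by -0.46 with cis-3-hexenol (SE 0.11, edgeR adjusted p = 0.00429) and by -0.67 with the mixture (SE 0.11, edgeR adjusted p = 0.000107). The last 2 calls held in each fit without 1 library. With octanal the call was lost without OC control 1, octanal 2 or octanal 3, where the adjusted p reached 0.106. Because 54.2% of the values of Olfr523 are not whole, these changes carry the uncertainty of divided reads given above.

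All values of Olfr524 were whole. It held 2.04, 2.34 and 2.34 per 1000 receptor counts in the OC controls, 1.78, 1.70 and 1.41 with octanal, 1.58, 1.63 and 1.77 with cis-3-hexenol and 1.24, 1.20 and 1.63 with the mixture. No odorant library reached a control. Scaled to the other receptors the log2 fold changes were -0.46, -0.44 and -0.73, with edgeR adjusted p = 0.0187, 0.0282 and 0.000649. The call with the mixture held in each fit without 1 library, that with octanal in 4 of 6, lost without OC control 3 or octanal 3, and that with cis-3-hexenol in 1 of 6, without OC control 1.

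Olfr525 held 1.53, 1.20 and 1.41 per 1000 receptor counts in the OC controls and 0.815, 0.747 and 0.735 with cis-3-hexenol. In CPM it stood at 5.81, 5.02 and 4.49 in the controls and at 3.84, 3.65 and 3.83 with cis-3-hexenol. It was the 1 member of 55 (1.82%) lower there without overlap in CPM, against 0.92% of the other receptors. For this count the rate over all genes is not given, and Olfr525 was chosen after its values were seen. Scaled to the other receptors its log2 fold change was -0.86 (SE 0.18, edgeR adjusted p = 0.00141), in each fit without 1 library past the threshold, and it was -0.50 with the mixture (edgeR adjusted p = 0.0169), lost without OC control 1, OC mixture 1 or OC mixture 3. With octanal it stood at -0.38 and was not called (edgeR adjusted p = 0.0754). Its close relative Olfr532, shown above, held 1.08, 1.16 and 1.25 in the controls and 0.983, 1.01 and 1.02 with cis-3-hexenol, and was not called on either scale.

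**Figure D4:**
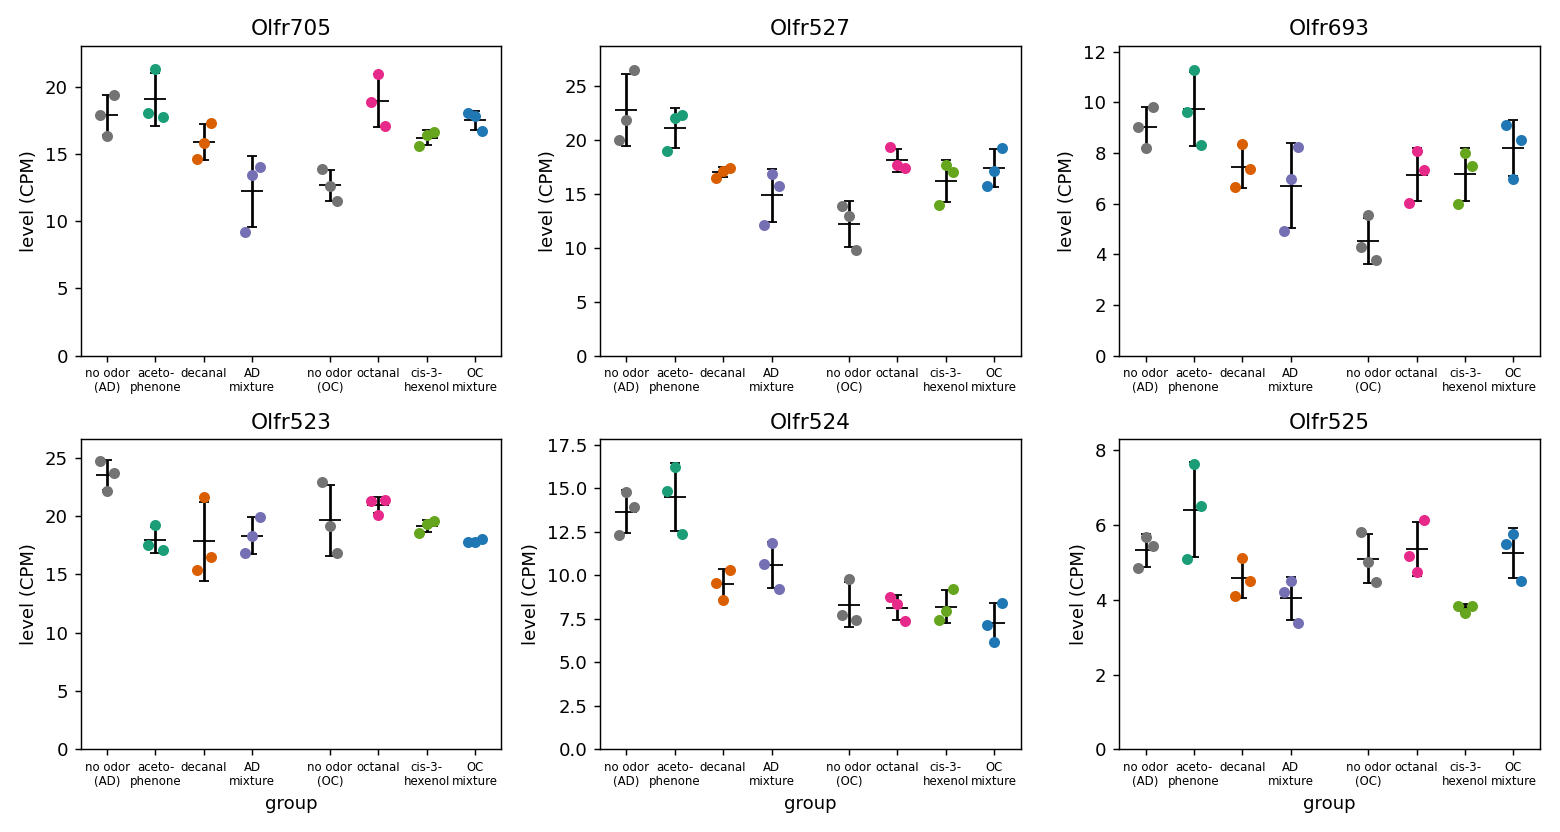
Level in CPM (axes from 0) of Olfr705, Olfr527, Olfr693, Olfr523, Olfr524 and Olfr525 by group; points are libraries, and bars the mean and SD of 3. Olfr705, Olfr527 and Olfr693 lie above the OC controls with each OC odorant in every library, while Olfr523, with 17.8 to 21.4 CPM in the octanal, cis-3-hexenol and OC mixture libraries, overlaps its controls. Scaled to the other receptors, Olfr705 and Olfr527 turn to below 0 with cis-3-hexenol and the OC mixture.

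Odorants of a batch were also compared with each other at the same volume and time. Decanal and acetophenone, an aldehyde and a ketone, differed in 6 members. Lower with decanal were Olfr524, Olfr535, Olfr531, Olfr695 and Olfr525, against 14.4% of all genes called lower, and Olfr481 was higher, against 12.6% called higher. Olfr524 counted 14.9, 16.2 and 12.4 CPM with acetophenone, above all decanal libraries, a log2 difference of -0.63 (SE 0.12, edgeR adjusted p = 0.00149). It kept its call when scaled to the other receptors, at -0.51 (edgeR adjusted p = 0.0383), and without any 1 library.

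Olfr535 differed by -0.47 (edgeR adjusted p = 0.00693), Olfr531 by -0.33, Olfr695 by -0.44 and Olfr525 by -0.51, with the 2 groups overlapping in Olfr525. The calls of Olfr535 and Olfr531 held without any 1 library, and that of Olfr695 was lost without acetophenone 3. Olfr525 kept its call in 2 of 6 such fits, losing it without acetophenone 2 or 3, or decanal 1 or 3. Olfr481, of family MOR204, counted 2.85, 1.75 and 1.86 CPM with acetophenone and 3.42, 3.86 and 3.78 CPM with decanal, a difference of 0.76 (SE 0.22, edgeR adjusted p = 0.0192), or of 0.87 when scaled to the other receptors. That call was lost without acetophenone 2 or 3, or decanal 2 or 3. The median difference over members was -0.24, or -0.12 on the rescaled fit, in which Olfr524 was called lower, against 2.81% of all genes, and Olfr481 and Olfr508 higher, against 10.7%.

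Cis-3-hexenol and octanal, an alcohol and an aldehyde, differed in 0 of 55 members by edgeR, against 0% of all genes, while DESeq2 called 0 and 5 members had an unadjusted p under 0.05. The smallest p was that of Olfr525, at -0.51 (SE 0.16, edgeR adjusted p = 0.221). For Olfr705 the difference was -0.22, with a 95% interval from -0.41 to -0.04 and edgeR adjusted p = 0.298. For Olfr527 the interval ran from -0.40 to 0.08, for Olfr693 from -0.35 to 0.36 and for Olfr716 from -0.17 to 0.54. These widths do not show that the odorants act alike.

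Decanal and octanal, aldehydes that differ in chain length, belong to different batches and were not compared directly. Against its own controls Olfr527 stood at -0.40 with decanal and 0.53 with octanal, and Olfr705 rose with octanal. The 2 sets of controls differed too, with Olfr527 at 22.8 ± 3.37 CPM in the AD controls and 12.2 ± 2.11 CPM in the OC controls (SD, n = 3), and batch and mice cannot be told apart there.

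The other genes of the pathway were counted from lists, on the usual scale alone. Of all genes tested, 11.4% were called higher and 12.5% lower with decanal, 10.6% and 11.6% with the AD mixture, 14.4% and 15% with octanal, 5.56% and 6.65% with cis-3-hexenol, and 11.5% and 12.7% with the OC mixture. Of 19 genes of odor transduction, 2 rose and 8 fell with decanal, 2 rose and 10 fell with the AD mixture, 9 rose and 3 fell with octanal, 8 rose and 3 fell with cis-3-hexenol, and 8 rose and 3 fell with the OC mixture. None was called with acetophenone. Pde1c, a phosphodiesterase that degrades cyclic AMP, fell by 0.60 with decanal (SE 0.07, edgeR adjusted p = 6e-05) and rose by 0.68 with octanal (SE 0.08, edgeR adjusted p = 0.000105). Adcy3 fell by 0.40 with decanal and by 0.51 with the AD mixture.

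Omp, which marks mature olfactory neurons, fell with each OC odorant, by 0.45 with octanal (SE 0.05, edgeR adjusted p = 0.000104), by 0.31 with cis-3-hexenol and by 0.32 with the mixture, in which the called receptors rose. It stood at 0.13 with decanal (edgeR adjusted p = 0.104). Omp differed in this from most of the 7 mature neuron markers it belongs to. Of these, 2 rose and 1 fell with octanal (median 0.21), 3 rose and 1 fell with cis-3-hexenol (0.17) and 4 rose and 1 fell with the OC mixture (0.24). With decanal 3 fell (median -0.24), with the AD mixture 4 fell (-0.28), and with acetophenone none was called. All 7 are also counted among the transduction genes above or the genes for receptor choice, folding and transport below. The counts of these lists are therefore not independent of each other. Gap43, of immature neurons, fell by 0.26 with octanal (edgeR adjusted p = 0.0381) and rose by 0.24 with the AD mixture (edgeR adjusted p = 0.0414).

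Of 20 genes for receptor choice, folding and transport, 2 rose and 6 fell with decanal, 2 rose and 3 fell with the AD mixture, 2 rose and 7 fell with octanal, 0 rose and 7 fell with cis-3-hexenol, and 3 rose and 7 fell with the OC mixture. Atf5, a transcription factor of the feedback that follows receptor translation, fell by 1.14 with octanal (SE 0.09, edgeR adjusted p = 1.77e-05) and rose by 0.53 with decanal (SE 0.09, edgeR adjusted p = 0.000498). Rtp1, which helps receptors reach the membrane, fell by 0.33 with decanal and by 0.34 with the AD mixture.

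Of 10 genes known to rise with neuronal activity, 6 rose with octanal, 4 rose and 1 fell with cis-3-hexenol, and 6 rose with the OC mixture. Lrrc3b rose by 1.27, 0.97 and 1.55 in that order. With the AD mixture 4 rose, and with decanal 2 rose and 1 fell. In the OC batch the erythroid markers moved the other way, with 5 of 5 lower with octanal and 4 of 5 with cis-3-hexenol and with the mixture. Their summed level ran from 2153 to 4642 CPM in the OC controls, from 760 to 1139 CPM with octanal, from 1303 to 1961 CPM with cis-3-hexenol and from 847 to 1786 CPM with the mixture, and none was at 0. Of 8 marrow markers 7 fell with octanal, 0 with cis-3-hexenol and 6 with the mixture, and of 5 bone markers 4, 3 and 4 fell. Of 6 sustentacular cell markers 3 rose and 1 fell with octanal, 1 fell with cis-3-hexenol, and 3 rose and 1 fell with the mixture. Their summed level ran from 10242 to 11727 CPM in the OC controls, from 13154 to 13901 CPM with octanal, from 12369 to 12413 CPM with cis-3-hexenol and from 12519 to 13784 CPM with the mixture, and none was at 0. Mitochondrial transcripts took 0.794% ± 0.173 of counts in the OC controls and 0.417% ± 0.0392 with octanal (SD, n = 3), without overlap. They took 0.779% ± 0.0443 with cis-3-hexenol and 0.692% ± 0.195 with the mixture, both overlapping the controls. The part of these in the receptor changes was not tested.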

How the data were processed

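RNA from the olfactory epithelium was sequenced as stranded poly(A) libraries, per the labels' protocols. The authors deposited expected counts per Ensembl gene, 1 table per batch. The submitters' processing notes name STAR 2.7.10b, Salmon 1.10.1, R 4.4.2 and GRCm39, without their roles. The counts were rounded, since 12.8% of AD and 12.6% of OC values were not whole. Symbols, lengths and coding sequences came from GENCODE M21 by Ensembl ID, MOR numbers from RefSeq synonyms. No protein table was used, and no promoter is shown.

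Each batch of 12 libraries was fitted once with edgeR 4.0.16 in R 4.3.3 (filterByExpr, TMM, quasi-likelihood F-test, two-sided, Benjamini-Hochberg over all genes tested). The standard error is the log2 fold change over the square root of F. CPM is the rounded count over the library's deposited total, times 1000000. Alternatives were DESeq2 1.42.0, other scalings and filters, length and GC offsets and leaving out libraries. Leaving out libraries on the receptor scale and for the share of receptor counts was added after seeing the data. The pipeline was tested on simulated counts. Samples of a group are labelled biological replicates.

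Members and lists were chosen with earlier results of these data known. Named were the 6 members highest per kb, up to 10 called per direction and comparison with a control (otherwise the 3 smallest p), up to 5 per direction between odorants, family leaders, near-identical pairs, and members called when scaled to the other receptors. The last, with Olfr532, Olfr706 and the OC mixture values of Olfr477 and Olfr522, were chosen after their values were seen.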

Additional observations from a re-analysis of the deposited data

How the results depend on the processing

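Of 43 called pairs of a member and a comparison, 15 kept their call without any 1 library. Scaling to the other receptors kept 5 of them, ended 29 and turned 9: Olfr533 with octanal (-0.039), Olfr705 and Olfr527 with cis-3-hexenol (-0.067 and -0.0066), and Olfr705, Olfr527, Olfr535, Olfr477, Olfr522 and Olfr706 with the OC mixture (-0.075, -0.020, -0.068, -0.070, -0.046 and -0.0079). On that scale 0 members were called with decanal (3 on the usual scale), 2 with the AD mixture (6), 4 with octanal (10), 3 with cis-3-hexenol (5), 3 with the OC mixture (13) and 3 between decanal and acetophenone (6). The 3 with cis-3-hexenol and the 3 with the OC mixture were lower (Olfr523, Olfr524 and Olfr525), as were 3 of the 4 with octanal, where only Olfr498 was called higher on both scales. For the OC odorants the adjustment of p on that scale is weak, as given above. Offsets for length and GC left 1 with decanal, 5 with octanal, 1 with cis-3-hexenol and 4 with the OC mixture, and with the replicate block 5 with octanal, 0 with cis-3-hexenol and 1 with the OC mixture. Without the block these offsets called 3328 of 19525 genes with decanal. Of 19175 genes they called 4562 with octanal, 1251 with cis-3-hexenol and 3315 with the OC mixture. On the usual fit these counts over all genes were 4660, 5640, 2341 and 4647. Without a low-count filter 3 members were called with acetophenone, 7 with decanal, 15 with the AD mixture and 13 between decanal and acetophenone. Fits of the 6 libraries compared gave 5 with decanal, 1 with cis-3-hexenol and 8 with the OC mixture, and the DESeq2 Wald test 10 with the AD mixture. Rates over all genes are not given for the replicate block, filter, 6-library, DESeq2 and leave-out fits. Their counts therefore show only how many members were called. The cause of the differences between settings was not tested.

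Leaving out 1 library gave 1 to 5 called with decanal, 1 to 8 with the AD mixture, 7 to 11 with octanal, 1 to 9 with cis-3-hexenol, 6 to 15 with the OC mixture, 4 to 8 between decanal and acetophenone, and 0 in each case in the comparisons of acetophenone with its control and of cis-3-hexenol with octanal. The ratio of the members' share of receptor counts in the OC mixture to that in the OC controls was 0.910, 0.952 without the 3 members with the most counts, and 0.900 to 0.927 without 1 library.

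Replicate numbers are shared between groups, and the labels do not say whether they pair the mice. Deviations of same-numbered libraries correlated by 0.017 on average in the AD batch (from -0.19 to 0.24). In the OC batch the average was -0.051 (from -0.18 to 0.12). Such correlations cannot show whether same-numbered mice were handled together. With the replicate block 3 members were called with decanal, 8 with the AD mixture, 11 with octanal, 4 with cis-3-hexenol, 12 with the OC mixture and 8 between decanal and acetophenone. The 18 members tested in neither batch had too few counts for the filter, so nothing is said of their change.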
